A study of Mus musculus with 17 samples.

Results

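Transcripts of 9 genes of 3 vasoactive hormone systems were followed in cardiac fibroblasts (CFs) during the first days after myocardial infarction. The genes were chosen by name, as ligands, enzymes and receptors of the angiotensin, endothelin and natriuretic peptide systems. All 9 were found among the 31053 genes listed, and all 9 passed the filter for testing, as did 14030 genes in total. The 17 libraries came from C57BL/6 mice of 8–10 weeks that carried a Collagen1a1-GFP reporter and all underwent ligation of the left anterior descending coronary artery, with 3 libraries each at 1, 2, 4 and 6 days post infarction (dpi), 4 at 3 dpi and 1 at 5 dpi. GFP was driven by the Col1a1 promoter, and CFs were sorted as Col1a1-GFP+/CD31-/CD45- cells, so that cells with little Col1a1 activity were not collected. Uninfarcted hearts were not analysed here, and every comparison is between days after infarction. In bulk libraries, fewer cells that express a gene and less RNA per cell cannot be told apart.

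Angiotensinogen, encoded by Agt, is the precursor of angiotensin II, which angiotensin-converting enzyme (Ace) releases and which acts through the G protein-coupled type 1 receptor (Agtr1a in rodents) to raise blood pressure and promote fibrosis. Endothelin-1, encoded by Edn1, is a vasoconstrictor peptide that signals through the Gq-coupled type A receptor (Ednra) and through the type B receptor (Ednrb), which also clears the peptide. Natriuretic peptides counteract both systems: Npr1 and Npr2 are receptor guanylyl cyclases that make cGMP, while Npr3 mainly removes the peptides from the circulation.

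Libraries held 8021815–22029938 counts in total (median 14123952), and 3 counts, taken as the floor of detection, corresponded to 0.136–0.374 CPM, where CPM is a count scaled to the library size. The summed CPM of 8 fibroblast markers was 15750–49202 in every library. By sex-linked transcripts, 10 of the 17 libraries were Y-rich, that is, their summed counts of Y-linked genes were above those of Xist. They were 5 of the 6 libraries of the first 2 days and all 5 of 3 and 5 dpi, against 0 of the 6 of 4 and 6 dpi. The sex of the mice is not given by the labels, and this pattern and the day cannot be told apart between 3 and 4 dpi, nor, but for 1 early library, between the first 2 days and 4 and 6 dpi. Labels of the 3 dpi libraries follow another naming scheme. Of single libraries left out, 3 dpi replicate 2 changed the number of genes called over the time course most, from 2099 to 3466 of all genes, and the same 6 of the 9 genes described next were called with and without it.

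Across the time course, 6 of the 9 genes differed between days at an adjusted p under 0.05 by edgeR's quasi-likelihood test, beside 15.0% of all genes tested. These were Ace, Edn1, Ednra, Ednrb, Npr1 and Npr2, whereas Agt (adjusted p = 0.221), Npr3 (adjusted p = 0.298) and Agtr1a (adjusted p = 0.326) did not pass. Among the 10 Y-rich libraries, which include no library of 4 or 6 dpi, 0 of 9 passed by edgeR, beside 3.41% of 13463 genes tested there. At an unadjusted p under 0.05, 5 of 9 passed in the Y-rich libraries. The share of all genes at that threshold was not counted there, so that the 5 cannot be compared with it. Over all libraries, 4405 of the 14030 genes tested and 6 of the 9 had an unadjusted p under 0.05 by edgeR. DESeq2 was not run on the Y-rich libraries alone. When 4 and 6 dpi together were compared with 1 and 2 dpi together, edgeR called Edn1 and Ednra higher and 0 of 9 genes lower. Of all genes 9.44% were called, 6.07% higher and 3.37% lower. The median log2 fold change of the 9 genes was 0.435 (all genes tested, -0.003), with 5 above 0 and 4 below. Between neighbouring days, the decrease of Ace from 3 to 4 dpi was the single call among the 9 genes.

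**Figure D1:**
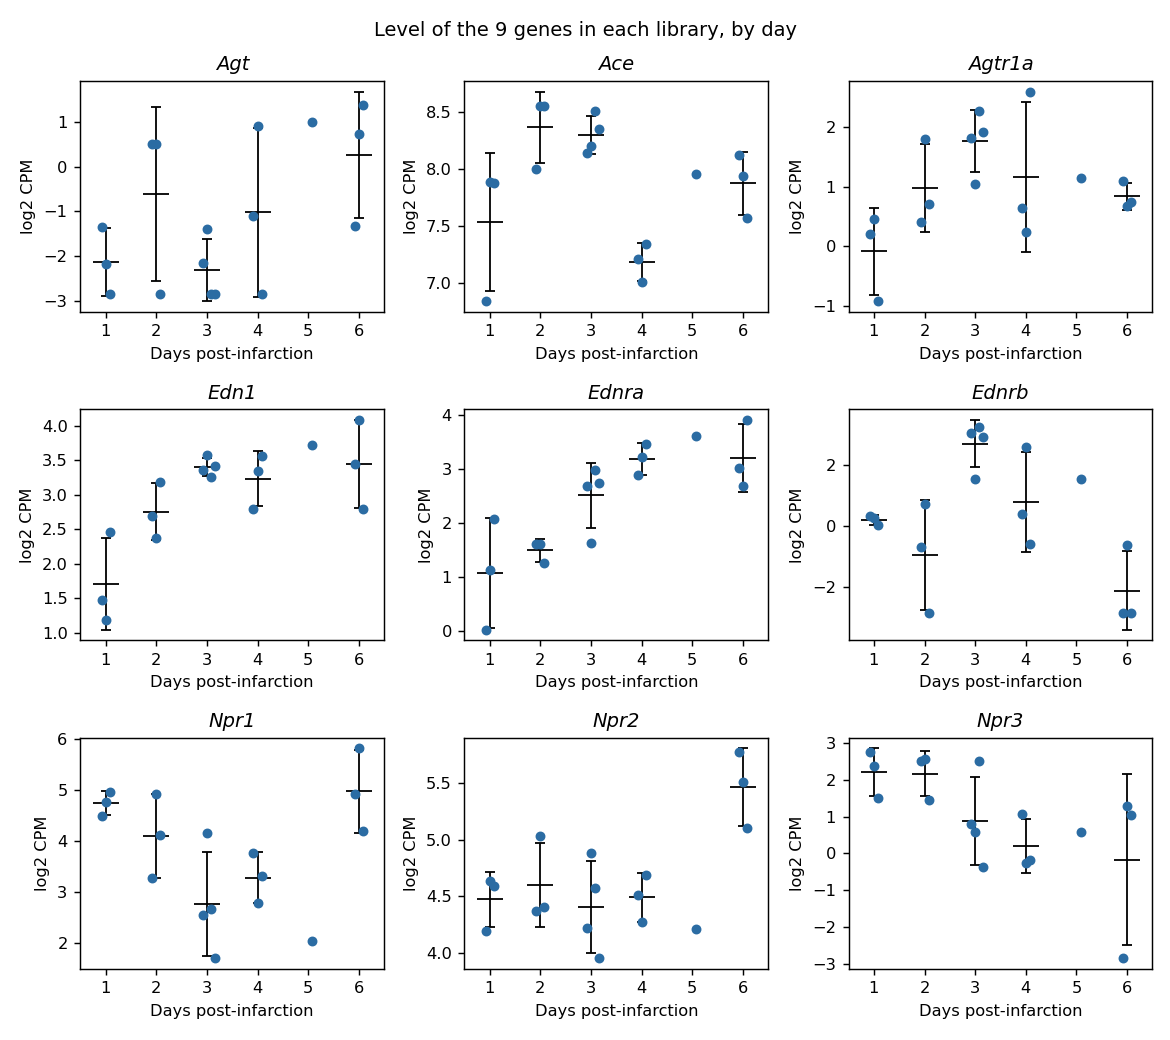
Levels of the 9 genes by day after infarction, 1 panel per gene, as log2 CPM after TMM normalization (y axis; each panel has its own range). Points are libraries and bars are day means with the SD between libraries (1, 2, 4 and 6 dpi n = 3, 3 dpi n = 4, 5 dpi n = 1 without SD). Ednra lay higher in all 6 libraries of 4 and 6 dpi than in all 6 of 1 and 2 dpi, and Ednrb was highest at 3 dpi.

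Of Agt, Ace and Agtr1a, Ace alone had a called change. Ace (ENSMUSG00000020681, plus strand, chr11:105967945-105989964 in GRCm38) was counted 904–7034 times per library. After TMM normalization it was at 115, 237 and 235 CPM at 1 dpi, 257, 374 and 374 CPM at 2 dpi and 282, 294, 364 and 327 CPM at 3 dpi. The libraries of 4 dpi were at 148, 129 and 162 CPM, followed by 249 CPM in the single library of 5 dpi and 277, 245 and 190 CPM on the last day. Each library of 4 dpi was lower than each of 3 dpi, and the low value of 1 dpi replicate 1 fell below the range of 4 dpi.

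The level of Ace fell by 1.12 on the log2 scale from 3 to 4 dpi (SE 0.27, adjusted p = 0.0287, edgeR), in a comparison where 2.71% of all genes were called and 1.08% were called lower. Groups of these days did not overlap, lower at 4 dpi, for 8.06% of all genes. All libraries of 3 dpi were Y-rich and none of 4 dpi, so that day and sex-linked pattern cannot be told apart in this step. The adjusted p rose to 0.0617 without 3 dpi replicate 3, 0.0579 without 3 dpi replicate 4, 0.109 without 4 dpi replicate 1 and 0.142 without 4 dpi replicate 2, and was 0.0644 when libraries of 3 and 4 dpi alone were fitted. Over the time course, the adjusted p of Ace was 0.0291, and it exceeded 0.05 without 2 dpi replicate 2 or 3, 3 dpi replicate 3 or 4, or 4 dpi replicate 1 or 2 (0.051–0.093). From 4 to 6 dpi every library of 6 dpi lay above every library of 4 dpi, but the difference of 0.70 log2 (SE 0.28) did not pass (adjusted p = 0.177). For 4 and 6 dpi against 1 and 2 dpi, Ace differed by -0.46 log2 (SE 0.20, adjusted p = 0.155), and by -0.61 with an adjusted p of 0.044 without 1 dpi replicate 1.

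Ordered by day means, Ace ran from 4 dpi (log2 CPM 7.19 ± 0.17, SD) through 1 dpi (7.54 ± 0.60), 6 dpi (7.88 ± 0.28) and 3 dpi (8.30 ± 0.17) to 2 dpi (8.37 ± 0.31). Of these 4 pairs of neighbours, the means of 6 and 3 dpi alone were further apart than their pooled SD.

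The RefSeq promoter of the longer Ace transcript is printed below, as it precedes the gene with the called step between neighbouring days, with the 100 bases before the transcript start 5′ to 3′ at chr11:105967848-105967947 (GRCm38.p6, plus strand). Capitals mark a TATA box on the opposite strand (TATAAA, at -31) and GC boxes (GGGCGG, at -75 and -18).
Ace: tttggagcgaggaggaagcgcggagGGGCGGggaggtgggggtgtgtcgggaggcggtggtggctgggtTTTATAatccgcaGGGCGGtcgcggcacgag
Within 250 bases before the start and on both strands, TATAAA was found in 12.4% and GGGCGG in 32.7% of 32851 RefSeq promoters, and matches are given as a description of the letters.

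The receptor and the precursor of angiotensin had low counts, and Agt was at or under the floor of 3 counts in 9 of the 17 libraries. Agtr1a (ENSMUSG00000049115, plus strand, chr13:30336441-30382867) had 8–63 counts per library. It was at 1.01, 1.24 and 0.391 CPM at 1 dpi, and at 3.37, 1.93, 4.68 and 3.62 CPM at 3 dpi. The 3 libraries of 1 dpi were all below those of 3 dpi, yet the values at 4 dpi, 1.43, 1.04 and 5.88 CPM, spanned nearly the whole range. For how many of all genes 1 dpi lay below 3 dpi without overlap was not counted. Day means of Agtr1a went from log2 CPM -0.08 ± 0.73 at 1 dpi to 1.76 ± 0.51 at 3 dpi, and its difference between 4 and 6 dpi and the first 2 days was 0.68 (SE 0.50, adjusted p = 0.43), and 0.092 without 4 dpi replicate 3.

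Agt (ENSMUSG00000031980, minus strand, chr8:124556534-124569706) was counted 0–32 times, with 0 counts in 5 libraries and at least 10 in 6 libraries. The 3 libraries of 1 dpi had 2, 2 and 0 counts, those of 2 dpi 24, 24 and 0 and those of 3 dpi 1, 3, 0 and 0. Later, 5, 30 and 0 counts were found at 4 dpi, 18 in the library of 5 dpi and 4, 18 and 32 on the last day. Libraries with 24 or more counts and libraries at 0 were thus found on the same day at 2 and 4 dpi, and no difference in Agt between days passed the test (time course adjusted p = 0.221).

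In the endothelin system the ligand and the type A receptor were both higher at 4 and 6 dpi than in the first 2 days. Edn1 (ENSMUSG00000021367, plus strand, chr13:42301476-42307990) was counted 21–197 times per library. It was at 2.66, 2.14 and 5.38 CPM at 1 dpi, 6.37, 5.05 and 9.01 CPM at 2 dpi and 10.1, 11.8, 9.44 and 10.5 CPM at 3 dpi. At 4 dpi the values were 6.82, 10.0 and 11.6 CPM, at 5 dpi 13.02 CPM and at 6 dpi 10.8, 16.8 and 6.84 CPM. All 4 libraries of 3 dpi and the library of 5 dpi lay above each library of the first 2 days, as did 4 of the 6 libraries of 4 and 6 dpi. The share of all genes with this order was not counted, and 9.70% were higher without overlap at 3 than at 2 dpi alone.

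Edn1 was 1.11 higher on the log2 scale at 4 and 6 dpi than at 1 and 2 dpi (SE 0.28, adjusted p = 0.0144, edgeR). The library of 1 dpi replicate 1, which was not Y-rich and had the fewest counts in total, was at 2.66 CPM from 21 counts. The part of the sex-linked pattern in this difference was not tested. Without 6 dpi replicate 2 the adjusted p was 0.0515, and with each other library left out it stayed under 0.05. Over the time course Edn1 passed (adjusted p = 0.0331), but not without 1 dpi replicate 1 or 2, 2 dpi replicate 1, 3 dpi replicate 1 or 4, 4 dpi replicate 2, or 6 dpi replicate 1 or 2 (0.0507–0.132). In order of the day means, Edn1 rose from 1 dpi (log2 CPM 1.71 ± 0.67) and 2 dpi (2.76 ± 0.41) to 4 dpi (3.24 ± 0.39), 3 dpi (3.40 ± 0.14) and 6 dpi (3.44 ± 0.64). Neighbours among the last 3 of these means were closer to each other than their pooled SD. No step between neighbouring days was called for Edn1, of which the step from 1 to 2 dpi, 0.99 (SE 0.40, adjusted p = 0.549), was the widest.

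Ednra (ENSMUSG00000031616, minus strand, chr8:77663031-77724464), the receptor that mediates vasoconstriction by endothelin-1, had 7–193 counts per library. Its values were 0.886, 2.06 and 4.06 CPM at 1 dpi and 2.95, 2.92 and 2.25 CPM at 2 dpi. They reached 6.30, 2.98, 7.73 and 6.49 CPM at 3 dpi, 7.21, 9.18 and 10.9 CPM at 4 dpi, 12.1 CPM at 5 dpi and 7.94, 6.31 and 14.8 CPM at 6 dpi. The lowest library of 4 and 6 dpi, at 6.31 CPM, was above the highest of the first 2 days, at 4.06 CPM.

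The level of Ednra was 1.87 higher on the log2 scale, or 3.66-fold, at 4 and 6 dpi than at 1 and 2 dpi (SE 0.34, adjusted p = 0.0012, edgeR). All 6 libraries lay above all 6, which was the case for 2.54% of all genes. The call was kept without each of the 17 libraries in turn, with log2 fold changes of 1.65–2.18 and adjusted p of 0.000453–0.00562, and so was the call over the time course (adjusted p = 0.0108). Of the Y-rich libraries, 3 of the 4 at 3 dpi and the one at 5 dpi were above all libraries of the first 2 days. The library of 1 dpi replicate 1, which was not Y-rich, was the lowest of all at 0.886 CPM. It held 7 counts of Ednra, the fewest counts in total (8021815) and the lowest sum of fibroblast markers (15750 CPM). The part of the sex-linked pattern in the difference of 4 and 6 dpi from the first 2 days was not tested. Day means of Ednra increased from 1 dpi (log2 CPM 1.08 ± 1.02) through 2 dpi (1.498 ± 0.21) and 3 dpi (2.51 ± 0.59) to 4 dpi (3.19 ± 0.30) and 6 dpi (3.20 ± 0.63). The means of 2 and 3 dpi and of 3 and 4 dpi were further apart than their pooled SD, and none of these single steps passed the test.

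The promoters of the endothelin ligand and its type A receptor are shown because both genes were higher at 4 and 6 dpi, each as the 100 bases before the RefSeq transcript start in GRCm38.p6. Edn1 lies at chr13:42301376-42301475 on the plus strand and Ednra at chr8:77724453-77724552 on the minus strand, both read 5′ to 3′ along the gene.
Edn1: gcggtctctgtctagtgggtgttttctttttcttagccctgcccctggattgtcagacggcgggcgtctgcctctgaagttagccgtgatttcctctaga
Ednra: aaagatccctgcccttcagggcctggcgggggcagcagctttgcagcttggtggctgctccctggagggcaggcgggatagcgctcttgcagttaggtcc
None of the 5 motifs searched was found in the 250 bases before either start, so that no letters are in capitals. Beside TATAAA and GGGCGG, these were AP-1 (TGANTCA, in 6.75% of the 32851 promoters), the GATA factor motif (letters AGATAA, 9.99%) and CRE (TGACGTCA, 1.55%), on both strands.

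Ednrb (ENSMUSG00000022122, minus strand, chr14:103814625-103844402), the type B receptor, had its highest level at 3 dpi. The libraries of that day had 93, 35, 129 and 71 counts, against 9, 26 and 18 at 1 dpi and 9, 29 and 0 at 2 dpi. Later libraries had 18, 104 and 5 counts (4 dpi), 27 counts (5 dpi) and 0, 6 and 0 counts (6 dpi). In normalized CPM the 4 libraries of 3 dpi, at 8.25, 2.82, 9.59 and 7.56, were above all libraries of 1, 2 and 6 dpi, while 4 dpi replicate 2, at 6.00, fell into their range. How many of all genes were likewise above these 3 days was not counted, and for 3 against 2 dpi alone it was 9.70%. Ednrb passed over the time course (adjusted p = 0.0208), but not without 3 dpi replicate 1, 3 or 4 or 6 dpi replicate 1 (0.0521–0.0606), nor without all libraries of 3 dpi (0.317). The difference was 3.36 log2 from 2 to 3 dpi (SE 1.05, adjusted p = 0.0862) and -3.98 from 4 to 6 dpi (SE 1.24, adjusted p = 0.104), where the 3 libraries of 6 dpi held 6 counts in all. The latter value was -2.40 without 4 dpi replicate 2, and -8.26, a fitted value against libraries at 0 and no bound, without 6 dpi replicate 2. With DESeq2 both steps passed, with an adjusted p of 0.00781 and 0.0161.

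Receptors for natriuretic peptides followed different courses. Npr1 (ENSMUSG00000027931, minus strand, chr3:90450591-90465866), the cyclase receptor for the atrial and B-type peptides, was counted 29–661 times. It was at 22.5, 27.0 and 31.2 CPM at 1 dpi, 9.48, 30.3 and 17.1 CPM at 2 dpi and 5.68, 17.8, 6.17 and 3.09 CPM at 3 dpi. At 4 dpi its values were 13.4, 6.70 and 9.72 CPM, at 5 dpi 3.96 CPM and at 6 dpi 30.4, 56.3 and 18.1 CPM. The first and the last day were thus high, and 3 of the 4 libraries of 3 dpi and the library of 5 dpi were lower than every library of the other days.

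Npr1 passed over the time course (adjusted p = 0.0118) and with each of the 17 libraries left out. Its day means were lowest at 3 dpi (log2 CPM 2.76 ± 1.03) and 4 dpi (3.28 ± 0.50), and highest at 1 dpi (4.75 ± 0.23) and 6 dpi (4.98 ± 0.82). From 2 to 3 dpi the difference was -1.21 (SE 0.48, adjusted p = 0.181), or -1.92 with an adjusted p of 0.016 without 3 dpi replicate 2, the highest library of that day. From 4 to 6 dpi it was 1.81 (SE 0.53, adjusted p = 0.0912), with each library of 6 dpi above each of 4 dpi, and DESeq2 gave an adjusted p of 0.0185. The same step passed without 3 dpi replicate 2 (adjusted p = 0.0256) or 6 dpi replicate 3 (adjusted p = 0.0216).

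Npr2 (ENSMUSG00000028469, plus strand, chr4:43631935-43651244), the cyclase receptor for C-type natriuretic peptide, was counted 143–849 times. Its 14 libraries of 1 to 5 dpi ranged from 15.3 to 32.5 CPM, and those of 6 dpi were at 54.8, 45.4 and 34.0 CPM. Every library of 6 dpi was thus above every library of each other day. The share of all genes for which this held was not counted. The less strict order, 6 above 4 dpi alone, held for 11.3% of all genes. Day means were between log2 CPM 4.41 ± 0.41 (3 dpi) and 4.60 ± 0.37 (2 dpi) up to 4 dpi, and 5.46 ± 0.35 at 6 dpi. Npr2 passed over the time course (adjusted p = 0.0334), but not without 1 dpi replicate 3, 3 dpi replicate 1, 4 dpi replicate 1 or 2, or 6 dpi replicate 1 or 2 (0.0504–0.232). The step from 4 to 6 dpi was 0.99 log2 (SE 0.28, adjusted p = 0.0882), and it passed with DESeq2 (adjusted p = 0.0237) and without 3 dpi replicate 2 (0.0345) or 6 dpi replicate 3 (0.0208).

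Npr3 (ENSMUSG00000022206, minus strand, chr15:11839896-11907287), the clearance receptor, was counted 0–123 times. It was at 6.58, 5.07 and 2.69 CPM at 1 dpi and 5.52, 5.74 and 2.598 CPM at 2 dpi. From 3 dpi on, the values were 1.60, 1.37, 5.58 and 0.639 CPM, then 1.95, 0.693 and 0.748 CPM at 4 dpi, 1.35 CPM at 5 dpi and 0, 2.30 and 1.92 CPM at 6 dpi. Each of the 6 libraries of 4 and 6 dpi was below each of the 6 of the first 2 days, as for 1.10% of all genes. The difference of -1.89 log2 (SE 0.65) did not pass with edgeR (adjusted p = 0.0735) and passed with DESeq2 (adjusted p = 0.0216, 13.3% of all genes called) and when every gene was tested without a filter on low counts (adjusted p = 0.0033, 8.77% called).

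**Figure D2:**
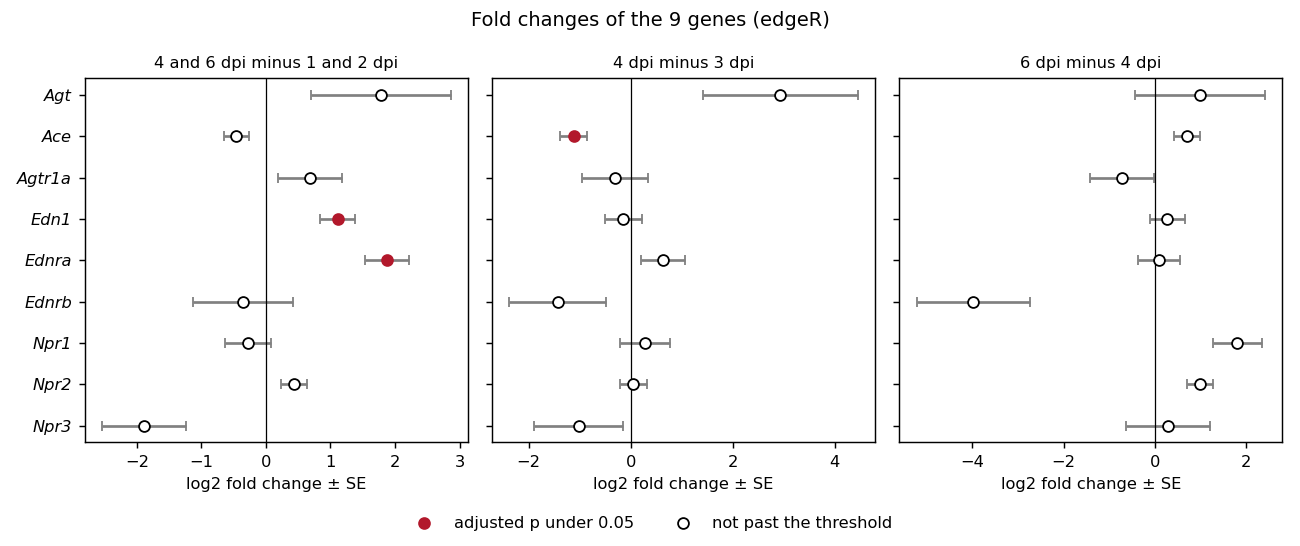
Log2 fold changes (x axis, 1 panel per comparison with its own range) of the 9 genes in 3 of the comparisons, with bars of 1 standard error on each side, from edgeR. Red points passed an adjusted p of 0.05: Edn1 and Ednra at 4 and 6 dpi against 1 and 2 dpi, and Ace at 4 against 3 dpi.

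For 3 pairs of neighbouring days, 0 of the 9 genes were called by edgeR. From 1 to 2 dpi, 0.178% of all genes were called. Of the 9 genes 2 (Ace and Edn1) had an unadjusted p under 0.05, as had 1063 of the 14030 genes tested, and DESeq2 called 0 of 9 (0.741% of all genes). From 2 to 3 dpi, 2.94% of all genes were called. Of the 9 genes 4 (Agt, Ednra, Ednrb and Npr1) had an unadjusted p under 0.05, as had 2567 of the 14030, and DESeq2 called Ednrb alone (7.43% of all genes). Without a filter on low counts, Ednrb and Npr1 were called (4.76% of all genes with a count). Edn1, Ednra and Ednrb were higher in each library of 3 dpi than in each of 2 dpi, as were 9.70% of all genes. From 4 to 6 dpi, 0.513% of all genes were called. Of the 9 genes 4 (Ace, Ednrb, Npr1 and Npr2) had an unadjusted p under 0.05, as had 2798 of the 14030. Ednrb, Npr1 and Npr2 were called by DESeq2 (5.75% of all genes) and without a filter (4.29% of all genes with a count). Ace, Npr1 and Npr2 were above every library of 4 dpi in each library of 6 dpi, as were 11.3% of all genes, and Ednrb was below, as were 10.2%. Neighbouring comparisons share the libraries of a day, and their values are not independent of each other.

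Other genes of the 3 systems were taken from lists made by knowledge of the pathways. Of 16 further renin-angiotensin genes 9 could be tested, and 3 of these passed over the time course, beside 15.0% of all genes. Prcp, a carboxypeptidase that inactivates angiotensin II, was 0.96 higher on the log2 scale at 4 and 6 dpi than in the first 2 days (SE 0.18, adjusted p = 0.00179). Lnpep, an aminopeptidase that binds angiotensin IV, fell by 0.90 (SE 0.23, adjusted p = 0.0171). Anpep, aminopeptidase N, fell by 1.37 from 2 to 3 dpi (SE 0.36, adjusted p = 0.0434) and was 1.59 higher at 4 than at 3 dpi (SE 0.36, adjusted p = 0.0201). The genes for renin (Ren1, at most 18 counts) and the other angiotensin receptors (Agtr1b, Agtr2 and Mas1, at most 4, 9 and 2 counts) did not pass the filter, and neither did those for the mast cell chymase (Cma1, at most 1 count) and cathepsin G (Ctsg, 0 counts in every library).

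Of the endothelin genes beyond the 3 described, Edn2 (at most 20 counts) and Edn3 (at most 1 count) did not pass the filter. The converting enzymes Ece1, with 756–4035 counts per library, and Ece2, with 0–57, were tested, and 0 of 2 passed over the time course by edgeR. At an unadjusted p under 0.05, and by DESeq2, 1 of 2 passed, as did 4405 and 3757 of the 14030 genes tested.

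Among 17 further genes of natriuretic peptides and cGMP signalling 14 were tested, and 5 passed over the time course, beside 15.0% of all genes. Gucy1a1 and Gucy1b1, the subunits of the soluble guanylyl cyclase that responds to nitric oxide, were higher at 4 and 6 dpi than in the first 2 days by 1.63 (SE 0.26, adjusted p = 0.00034) and 1.495 (SE 0.17, adjusted p = 1.24e-05) on the log2 scale. Gucy1a1 was 2.76 higher at 4 than at 3 dpi (SE 0.35, adjusted p = 0.000338). Pde9a, a cGMP phosphodiesterase, was higher by 0.76 (SE 0.17, adjusted p = 0.00728). Vasp, a substrate of cGMP-dependent kinase, passed over the time course (adjusted p = 0.0117), with its highest replicated day mean at 3 dpi (log2 CPM 6.09) and its lowest at 6 dpi (4.66).

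Nppa, which encodes atrial natriuretic peptide, a product of cardiomyocytes, had 1–442 counts per library. It was 2.42 higher on the log2 scale at 4 and 6 dpi than in the first 2 days (SE 0.38, adjusted p = 0.000284), after a decrease of 2.78 from 2 to 3 dpi (SE 0.62, adjusted p = 0.019), and rose by 4.33 from 3 to 4 dpi (SE 0.60, adjusted p = 0.000621). Of 7 cardiomyocyte markers tested, 6 passed over the time course (15.0% of all genes) and 5 were higher at 4 and 6 dpi (6.07% of all genes). The summed CPM of the list of 8 was 18.8–43.5 (1 dpi), 13.8–25.0 (2 dpi), 10.1–14.6 (3 dpi), 40.4–78.5 (4 dpi), 18.1 (5 dpi) and 90.0–198 (6 dpi). Ttn and Ryr2 were at 0 in 7 and 10 of the 17 libraries, and the other 6 markers in 0. The day mean of Nppa and the day median of the marker sums were both lowest at 3 dpi and highest at 6 dpi. Single markers differed from this: Myh6 had its lowest mean at 2 dpi (1.09 CPM, against 1.58 at 3 dpi). Tnni3 was lower in the library of 5 dpi (1.25 CPM) than on average at 3 dpi (2.03 CPM). Npr1 was also low at 3 dpi and high at 6 dpi, but it was high at 1 dpi and low at 4 dpi, where the marker sums were in the opposite order. Npr2 was highest at 6 dpi, with a step from 4 to 6 dpi that edgeR did not call (adjusted p = 0.0882). The study's methods describe a strainer that holds back cardiomyocytes before the sort, in the cell preparation for 3 and 5 dpi, and the part of cardiomyocyte RNA in these values was not tested.

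**Figure D3:**
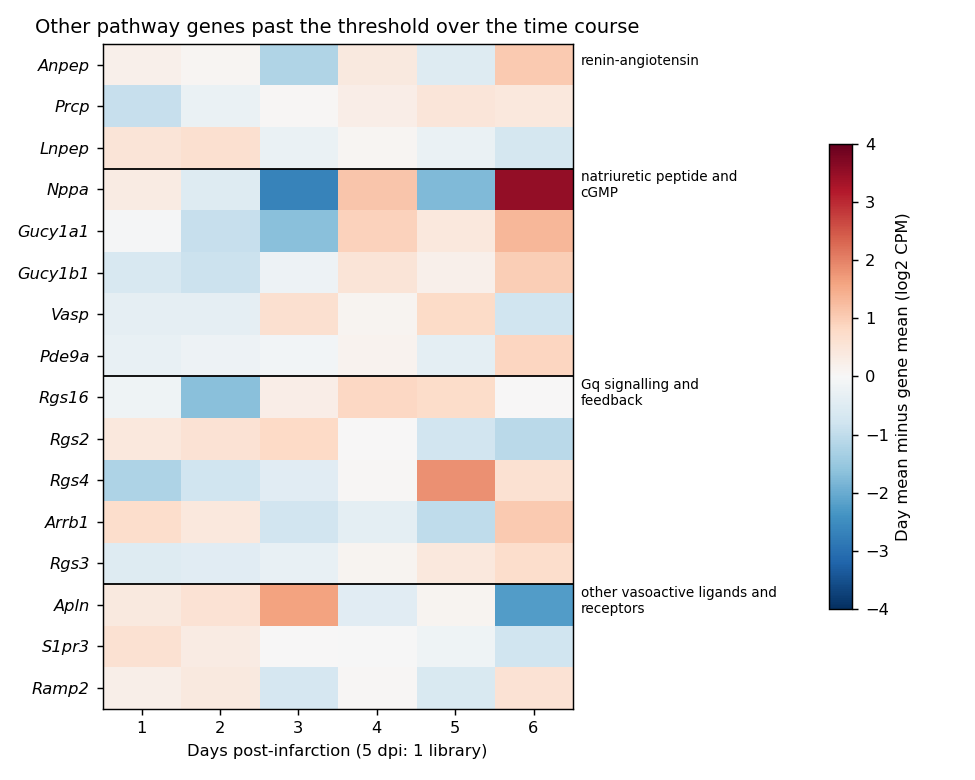
Day means of further genes of the renin-angiotensin and natriuretic peptide systems, of Gq signalling and of other vasoactive systems that passed over the time course, as log2 CPM minus the mean of each gene over the days (colour, limits -4 to 4). Gucy1a1, Gucy1b1 and Nppa are highest at 6 dpi, and Rgs2 and Apln lowest.

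Both Agtr1a and Ednra couple to Gq, and 24 of 25 listed genes of Gq signalling and its feedback were tested. Of these 5 passed over the time course, beside 15.0% of all genes. Rgs16, Rgs4 and Rgs3, which encode regulators that shut off G protein signalling, were higher at 4 and 6 dpi than at 1 and 2 dpi by 1.28 (SE 0.35, adjusted p = 0.0224), 1.41 (SE 0.35, adjusted p = 0.013) and 0.90 (SE 0.20, adjusted p = 0.00559) log2. Rgs2, another regulator with a preference for Gq, fell by 1.04 (SE 0.30, adjusted p = 0.0327). Arrb1, which encodes the arrestin that uncouples receptors from G proteins, fell by 1.198 from 2 to 3 dpi (SE 0.30, adjusted p = 0.0393) and was 1.51 higher at 6 than at 4 dpi (SE 0.33, adjusted p = 0.0483).

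Of 22 genes of other vasoactive systems 16 were tested, and 3 passed over the time course, beside 15.0% of all genes. Apln, the ligand of the apelin receptor, fell by 2.27 log2 between the first 2 days and 4 and 6 dpi (SE 0.46, adjusted p = 0.00315), and S1pr3, a receptor of sphingosine 1-phosphate, fell by 0.85 (SE 0.18, adjusted p = 0.0045). Ramp2, a subunit of the adrenomedullin receptor, passed over the time course (adjusted p = 0.0376), with 58.4 CPM at 3 dpi and 138 CPM at 6 dpi as the extremes of its day means.

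Markers of other cells were measured because pericytes, smooth muscle and endothelial cells also express these receptors. Of 8 mural cell markers, 5 (Cspg4, Higd1b, Rgs5, Des and Notch3) were higher at 4 and 6 dpi than in the first 2 days, beside 6.07% of all genes. Rgs5, for example, was higher by 1.68 log2 (SE 0.27, adjusted p = 0.000434). The summed CPM of all 8 was 64.7–111 (1 dpi), 78.4–97.6 (2 dpi), 140–177 (3 dpi), 125–232 (4 dpi), 262 (5 dpi) and 196–224 (6 dpi), and none of the 8 was at 0 in any library. Like Ednra and Edn1, the sums were higher at 4 and 6 dpi than in the first 2 days. From 1 to 2 dpi, the widest step of Edn1 (0.99 log2, not called), the median log2 fold change of the 8 mural markers was 0.083. The part of mural cells in the increase of Ednra and Edn1 was not tested.

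The sort gated against endothelial cells and leukocytes by CD31 and CD45, and their marker sums were below those of fibroblast markers in every library. In 3 dpi replicates 3 and 4 the leukocyte sums (150 and 183 CPM) were above the mural sums (145 and 169 CPM). Of 7 endothelial markers tested, 0 passed by edgeR over the time course (3 of 7 at an unadjusted p under 0.05 and 2 of 7 by DESeq2). Of the 14030 genes, 4405 passed unadjusted there and 3757 by DESeq2. Between 4 and 6 dpi and the first 2 days, 0 of the 7 passed (0 unadjusted and 0 by DESeq2, beside 3383 and 1860 of the 14030). The summed CPM of the endothelial markers was 14.2–68.4 over all libraries, mostly from Tek (147–787 counts), and Cdh5, Kdr, Tie1, Emcn, Vwf and Cldn5 were at 0 in some of them. The median log2 fold change of the 7 markers was 2.09 from 2 to 3 dpi and -1.91 from 3 to 4 dpi, in the direction of Ednrb at both steps, with 0 of 7 called by edgeR at each (2 and 1 of 7 at an unadjusted p under 0.05, 1 and 0 by DESeq2). It was 0.026 from 1 to 2 dpi, where Ednrb differed by -0.59 (SE 1.05), and 1.56 from 4 to 6 dpi, opposite in sign to Ednrb (-3.98). At each of these steps 0 of 7 were called by edgeR and 0 by DESeq2, with 0 and 2 at an unadjusted p under 0.05. Of the 14030 genes, 1063, 2567, 2555 and 2798 passed unadjusted in the 4 steps from 1 to 6 dpi, and 104, 1042, 879 and 807 by DESeq2. By day, the endothelial sums were 42.0–55.6 CPM at 2 dpi, 14.2–68.4 CPM at 3 dpi, 24.7–51.6 CPM at 4 dpi and 26.5–41.1 CPM at 6 dpi. Leukocyte markers summed to 40.5–183 CPM at 3 dpi, the day on which Ednrb was highest, against 52.0 CPM at 5 dpi and 8.67–32.2 CPM on the other days. Lyz2, a macrophage and neutrophil lysozyme, was the leukocyte marker among 7 tested that passed over the time course (adjusted p = 0.00468), beside 15.0% of all genes. The part of leukocytes and endothelial cells in the level of Ednrb was not tested. Of 8 mesothelial and 4 Schwann cell markers, 0 and 0 passed by edgeR over the time course. At an unadjusted p under 0.05, 3 and 1 passed (4405 of the 14030 genes), and by DESeq2 1 and 1 (3757 of the 14030).

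**Figure D4:**
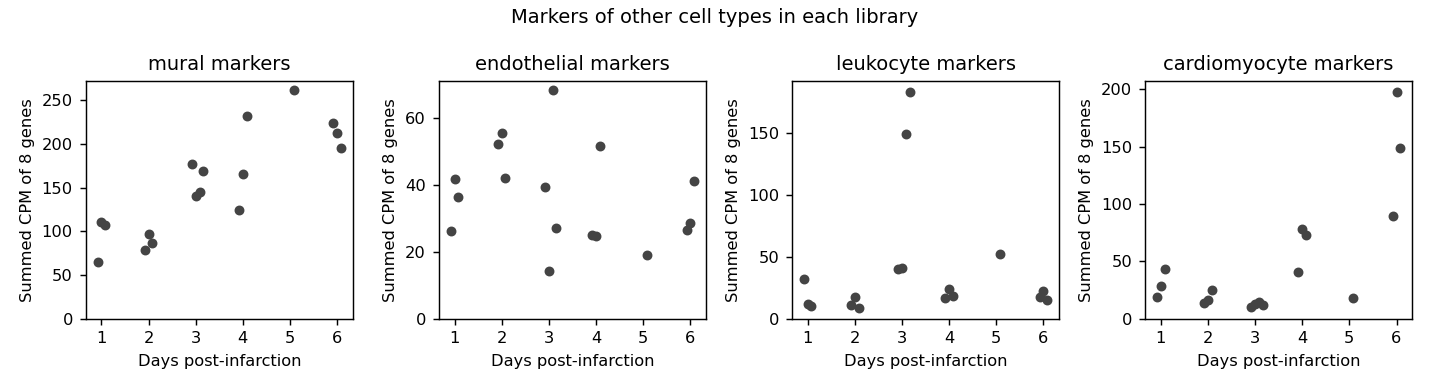
Summed CPM of marker lists of other cell types in each library, scaled to the total counts without TMM (y axis, linear from 0), by day after infarction (x axis), 1 panel per list. Mural sums were 64.7–111 CPM at 1 dpi and 196–224 CPM at 6 dpi, and leukocyte sums were highest at 3 dpi.

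For each of the 9 genes, the genes with the most similar pattern over the 17 libraries were listed among those with a mean of at least 100 counts. Ednra was closest to P4ha3 (Pearson r = 0.912), Fndc1 (0.908) and the cell adhesion molecule Mcam (0.892). For Edn1 they were Gpc6 (0.909), Cotl1 (0.871) and Csrp1 (0.857), and for Ednrb Rbmxl1 (0.877), Rwdd4a (0.844) and Parp2 (0.837). Ace was closest to Cyp27a1 (0.881), Pla1a (0.864) and Nudt9 (0.855). Npr1 followed Zfp740 (0.928) and Emc9 (0.906), Npr2 followed Mmp2 (0.905), Adamts10 (0.901) and Cst3 (0.900), and Npr3 followed Prg4 (0.807), Rbm39 (0.797) and Mbd1 (0.775). The closest genes were Arsb (0.800), Fkbp9 (0.796) and H2afy2 (0.785) for Agtr1a, and S100a1 (0.738), Stk38l (0.727) and Fah (0.710) for Agt. These values describe the libraries, whose days, depth and other cell markers the genes share.

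Of the 9 genes, 6 share exon bases with a gene on the opposite strand. The partners of Ace (Gm11651), Npr1 (Gm16048) and Npr2 (Gm12473) had 0 counts in every library and that of Edn1 (Gm47118) at most 2, whereas those of Ednra (4933431K23Rik) and Npr3 (Gm5144) were not analysed here. Whether counting used strand is not given in the sources used here, so that the counts of Ednra and Npr3 could include reads of these partners.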

How the data were processed

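Bulk MARS-seq libraries, which count the 3′ ends of poly-A transcripts, of 17 samples of sorted CFs were analysed. The deposited values are raw read counts per gene, which the authors made by demultiplexing with bcl2fastq (1.2.4), alignment to mm10 with STAR and assignment with featureCounts. Collapsing of PCR duplicates or molecular identifiers and a strand setting are not given in the sources used here. The floor of 3 counts covers counting error only, whereas SD and SE include the spread between libraries. Samples were grouped by the day in the labels, and the single 5 dpi library, numbered 3 in its title and 1 in its description, was not tested alone.

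Counts were read with pandas (2.3.3, Python 3.11.15) and tested in R (4.3.3) with edgeR (4.0.16), TMM normalization and the quasi-likelihood F-test. The model had 1 term for each of the 6 days and was fitted to all 17 libraries, for genes that reached 10 counts in 3 or more of them. Benjamini-Hochberg adjustment was made over all 14030 genes tested (threshold 0.05). As 6 comparisons, the time course, 4 and 6 dpi averaged against 1 and 2 dpi averaged, and 4 pairs of neighbouring days were tested. Log2 CPM used a prior count of 2, CPM of single genes were counts scaled to the TMM-adjusted library size, and SE was the size of the log2 fold change divided by the square root of F. The summed CPM of marker lists and the floor in CPM were scaled to the total counts of a library without TMM. The script was tested on simulated data.

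The 9 genes, the pathway and marker lists and the comparisons were chosen with earlier results of these data known. All 9 were named in each comparison. From each other list, genes that passed over the time course were named, at most 6 by the range of day means, and for each of the 9 genes the 3 with the highest Pearson correlation among genes with a mean of at least 100 counts. A few genes that this rule or the lists name are not reported here. Other genes were named by their counts after their values were seen. Gene symbols and positions came from the GRCm38 annotation, and promoters from RefSeq (GRCm38.p6), in which all 9 genes but Agtr1a were found. DESeq2 (1.42.0), other filters and scalings, single libraries left out and the replicate number as a block were tried as alternatives.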

Additional observations from a re-analysis of the deposited data

How the results depend on the processing

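Replicate numbers did not pair the samples: deviations from day means correlated by 0.011 on average in 30 same-numbered pairs (-0.108 to 0.2) and by -0.005 in 72 others. With the replicate block, 3 of 9 genes passed over the time course and 0 from 3 to 4 dpi, where Ace had an adjusted p of 0.065. Over the time course the count was 3 without the 3 dpi libraries, 0 in the 10 Y-rich libraries, 3 to 6 with single libraries left out, and 7 when every gene was tested, with Npr3 added (adjusted p = 0.0365). For 4 and 6 dpi against 1 and 2 dpi it was 1 when at least 10 counts were required in every library (4 of the 9 tested) and 1 to 3 with single libraries left out. From 2 to 3 dpi DESeq2 called 1, the test of every gene 2 and fits without single libraries 0 to 1. From 3 to 4 dpi the count was 0 when these days alone were fitted and 0 to 1 without single libraries. From 4 to 6 dpi DESeq2 called 3, the test of every gene 3, the fit without 3 dpi libraries 1 and fits without single libraries 0 to 2. From 1 to 2 dpi the count was 0 in all settings run.

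Directions turned only for differences that were not called. In the Y-rich libraries, Ednra and Npr3 differed by -0.17 and 0.25 log2 from 1 to 2 dpi, and with the replicate block Npr2 differed by -0.059 from 3 to 4 dpi. With single libraries left out, the ranges that included both signs were, for 4 and 6 against 1 and 2 dpi, Ednrb -2.49 to 0.37. From 1 to 2 dpi they were Ednra -0.17 to 0.80, Npr2 -0.11 to 0.26 and Npr3 -0.33 to 0.25, and from 2 to 3 dpi Ace -0.25 to 0.006 and Npr2 -0.36 to 0.068. From 3 to 4 dpi they were Agtr1a -1.47 to 0.089, Edn1 -0.33 to 0.048, Npr1 -0.01 to 0.99 and Npr2 -0.078 to 0.23. From 4 to 6 dpi they were Agtr1a -1.11 to 0.45, Edn1 -0.10 to 0.54, Ednra -0.35 to 0.33 and Npr3 -0.27 to 0.95. The cause of these changes was not tested.

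With raw library sizes the days of the highest and lowest mean were kept for 6 of 9 genes, and the highest day became 3 dpi for Edn1 and 4 dpi for Ednra, and the lowest 4 dpi for Npr2. The other scalings kept both days for 9 of 9. Over all genes, the time course called 2099 with edgeR, 3757 with DESeq2, 3729 when every gene was tested, 459 in the Y-rich libraries and 1307 to 3466 without single libraries. In the same order of tools, 25, 104 and 153 genes were called from 1 to 2 dpi (10 with 10 counts in every library, 8 in Y-rich libraries, 63 with these days alone, 13 to 32 without single libraries), 412, 1042 and 980 from 2 to 3 dpi (252 with these days alone, 174 with the block, 46 to 734), 380, 879 and 866 from 3 to 4 dpi (125, 243, 126 to 722) and 72, 807 and 882 from 4 to 6 dpi (14, 28, 3 to 1402, also 140 with 10 counts in every library and 292 without 3 dpi libraries). When the libraries of 1, 2, 4 and 6 dpi alone were fitted, an alternative chosen after seeing the data, Edn1 and Ednrb did not pass over the time course (adjusted p 0.0534 and 0.272). Agt, Agtr1a, Ednra, Ednrb and Npr3 had under 10 counts in some libraries, so that their values are the less precise ones.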
